A study of Mus musculus with 64 samples.

Results

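The subunits of the hypoxia-inducible factors (HIFs) and the enzymes that sense oxygen for them were followed as 10 transcripts, Hif1a, Epas1, Hif3a, Arnt, Arnt2, Egln1, Egln2, Egln3, Vhl, and Hif1an. They were chosen by name, for their role in the pathway, and all 10 were among the 15241 genes that passed the filter on low counts. RNA was measured by poly-A sequencing in gastrocnemius, a calf muscle made mostly of fast fibers, from C57BL/6JBomTac-backcrossed mice aged 12 to 18 weeks. All mice were homozygous for the floxed Hif1a allele, and HIF1α KO mice also carried the Hsa-cre transgene, whose human α-skeletal actin promoter is active in muscle fibers and not in the vessels, nerves, or connective tissue of the muscle. fl/fl littermates without Cre were the controls. Mice of both genotypes and sexes ran on a treadmill for 60 min, at 16 m/min after a start at 6 m/min and with an incline of 5% per the sample labels, or stayed on a mock treadmill (sedentary), at zeitgeber time 3 (ZT3, rest phase) or ZT15 (active phase). Tissue was taken 3 h later, so ZT3 and ZT15 below name the time of the bout and not of collection. Each of the 8 groups held 4 females and 4 males, except that 1 male of the exercised HIF1α KO group at ZT3 was left out because its library held 382 counts, none of them in the 10 genes, so that 63 libraries (32 from females, 31 from males) were compared.

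When oxygen is plentiful, the prolyl hydroxylases encoded by Egln1, Egln2, and Egln3 mark the HIFα proteins, and the product of Vhl then recruits a ubiquitin ligase that sends them for degradation. The asparaginyl hydroxylase encoded by Hif1an blocks the binding of coactivators to whatever HIFα remains. When oxygen falls, as it does in contracting muscle, HIFα is spared, pairs with its partner ARNT, and binds short elements with the core ACGTG or GCGTG in genes of glycolysis, vessel growth, and iron handling. Much of this control acts on protein, so transcript levels report the supply of the parts rather than the activity of the pathway. Egln1 and Egln3 are themselves known targets of HIF in many tissues.

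The sequence removed by Cre is shown because it sets what the Hif1a counts can and cannot tell. The study's loxP sites flank exon 2 of Hif1a, which in the GENCODE M21 transcript Hif1a-201 lies at chr12:73926557-73926747 on the plus strand of GRCm38. It holds 191 of the 4724 bases of the transcript, or 4.04%, is coding throughout, and its length leaves 2 bases over after whole codons.
Hif1a exon 2: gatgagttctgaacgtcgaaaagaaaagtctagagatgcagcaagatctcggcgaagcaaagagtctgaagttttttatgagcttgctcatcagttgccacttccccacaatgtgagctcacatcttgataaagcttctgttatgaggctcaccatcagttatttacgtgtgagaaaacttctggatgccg
The deposited counts cover whole genes, so reads of this exon could not be separated from reads of the other 14 exons. The Hif1a values below are therefore no check of the deletion. In a separate measurement in quadriceps, the study reported lower Hif1a expression in HIF1α KO mice than in fl/fl littermates.

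The windows upstream of Hif1a and Egln3 are shown because these were the members that changed with time of day and with exercise. Each is the 250 bases before the RefSeq start (GRCm38.p6), 5′ to 3′ on the strand of the gene, with every ACGTG or GCGTG on either strand in capitals. The Hif1a window is chr12:73907617-73907866 on the plus strand, within an intron of a longer annotated Hif1a transcript, and the Egln3 window is chr12:54203875-54204124 on the minus strand.
Hif1a: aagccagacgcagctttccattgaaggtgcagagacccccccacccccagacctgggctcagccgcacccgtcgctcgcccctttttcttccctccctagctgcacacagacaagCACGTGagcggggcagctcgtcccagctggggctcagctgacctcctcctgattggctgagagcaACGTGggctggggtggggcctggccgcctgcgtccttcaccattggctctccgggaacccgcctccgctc
Egln3: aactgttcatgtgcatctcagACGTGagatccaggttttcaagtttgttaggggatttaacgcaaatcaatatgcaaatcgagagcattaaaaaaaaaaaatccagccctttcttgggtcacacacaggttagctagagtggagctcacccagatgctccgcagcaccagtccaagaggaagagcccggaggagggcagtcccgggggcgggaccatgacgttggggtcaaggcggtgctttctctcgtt
In the Hif1a window the core stood at 3 places, -135, -134, and -70 from the start, and the first pair are the 2 strands of a single CACGTG, the E-box that clock factors are known to bind. Egln3 had a single ACGTG at -229 and no E-box. Of 32851 RefSeq promoter windows of the same length, 38.6% held ACGTG or GCGTG on either strand, 16.6% held ACGTG, and 6.02% held the E-box, so a core is a common feature of such windows. Sequences were found for 9 of the 10 members, and 6 of these 9 held at least 1 core. A match gives letters only, and no binding was measured.

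Total counts ranged from 2359780 to 40377963 per library, so 1 CPM (count per 1000000 counts, on TMM-scaled library sizes) stood for 2.55 to 44.9 counts, and 3 libraries had under 5000000. The 8 fast-fiber markers summed to between 93380 and 168776 CPM and the 7 slow-fiber markers to between 346.1 and 3833.5 CPM, so that the fast-fiber markers led in every library. Labels were checked with genes known for each factor. Against ZT3, Nr1d1 fell by 2.38 on the log2 scale (adjusted p = 3.1e-20) and Dbp by 1.42 (4.4e-15), and Arntl rose by 1.02 (7.8e-11). After exercise Ppargc1a rose by 1.22 (5.0e-12) and Nr4a3 by 1.46 (0.0030), while Pdk4 was 0.25 higher (0.66). Xist had 451 counts or more in every female and 29 or fewer in every male. In bulk muscle, fewer cells of a type and less RNA per cell cannot be told apart.

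Transcripts of 3 of the 4 hydroxylases, Egln1, Egln2, and Hif1an, were the most abundant members per length. Mean RPKM (CPM per kilobase of exon, n = 63) was 38.1 ± 6.38 (SD) for Egln1, 22.9 ± 2.70 for Egln2, and 18.4 ± 3.11 for Hif1an. The HIFα subunit Epas1 followed at 10.4 ± 3.12, then Egln3 at 7.34 ± 2.46, Hif1a at 6.18 ± 0.945, and the partner subunit Arnt at 4.89 ± 0.668. Vhl stood at 1.82 ± 0.453. The brain-rich partner Arnt2 (0.270 ± 0.0983) and the inhibitory subunit Hif3a (0.0649 ± 0.0580) were close to the limit of detection, with a median of 30 and 6 counts per library, and 7 libraries held no Hif3a count. With the longest transcript as length, Arnt moved from rank 7 to rank 5 and Egln3 from rank 5 to rank 7, so the order of Epas1, Egln3, Hif1a, and Arnt depends on which exons are used.

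**Figure D1:**
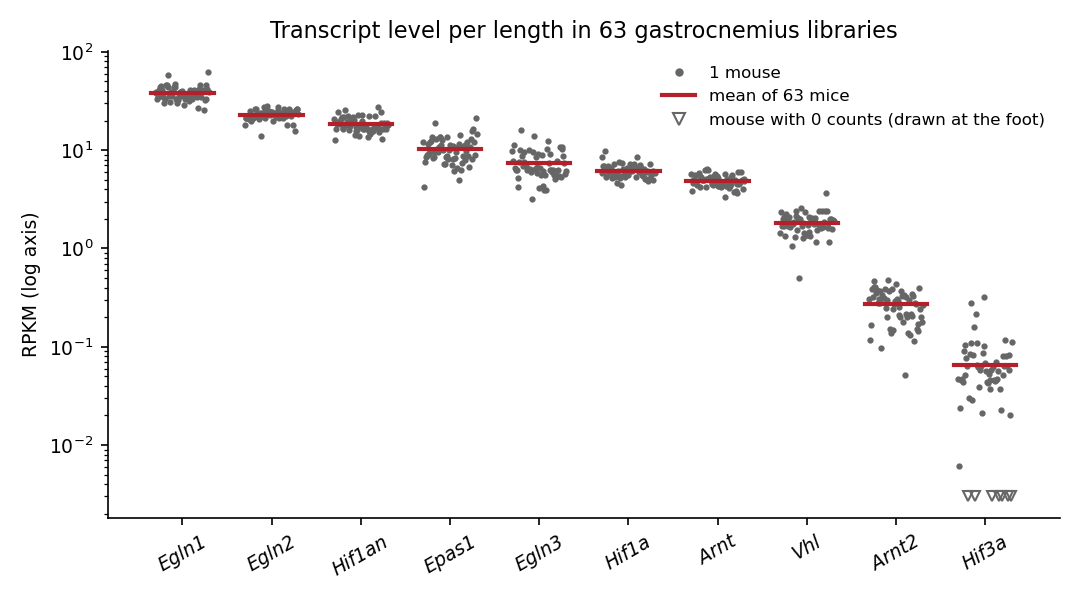
Level of each member per length (RPKM, logarithmic axis) in 63 libraries; points are mice, bars are means, and open triangles at the foot are the 7 libraries with no Hif3a count. Egln1, Egln2, and Hif1an lead, and Arnt2 and Hif3a lie far below the rest.

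Few members changed. Averaged over the 4 combinations of genotype and time of day, exercise raised Egln3 alone of the 10 (edgeR's quasi-likelihood test, Benjamini-Hochberg adjusted p under 0.1 over all genes), against 2.84% of all 15241 genes called. Between times of day, averaged over the 4 combinations of genotype and treatment, Hif1a was the 1 member called, lower at ZT15, where 8.02% of all genes were called. No member differed between HIF1α KO and fl/fl on average, where 8.26% of all genes were called; 3 had an unadjusted p under 0.05, as did 3105 of the 15241 genes, and DESeq2 called 2, Arnt and Arnt2, among 1457 genes. Between the sexes 4 of the 10 differed, Egln1, Egln2, and Hif3a higher and Egln3 lower in males, beside 25.1% of all genes. With only 10 members these counts are read beside the backgrounds and say nothing of the 10 genes as a set.

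**Figure D2:**
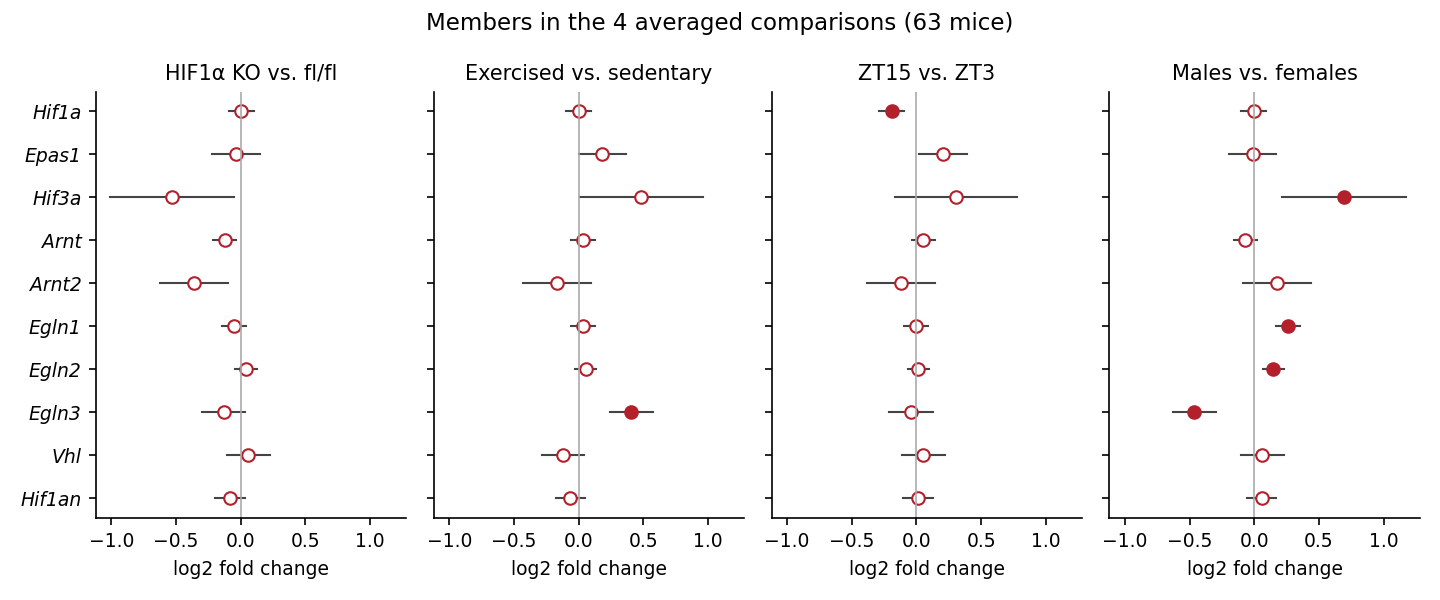
Log2 fold change of each member (points) with its 95% interval (lines) in the comparisons averaged over 4 combinations and between the sexes, 63 mice; filled points had an adjusted p under 0.1 over 15241 genes. Filled points are Egln3 for exercise, Hif1a for time of day, and Egln1, Egln2, Egln3, and Hif3a for sex.

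In single combinations the members were called once. Of the 10, 1 was called between ZT15 and ZT3 in sedentary fl/fl mice (1.88% of all genes called), which was again Hif1a. The count was 0 in exercised fl/fl mice (1.18%), in sedentary HIF1α KO mice (0.479%), and in exercised HIF1α KO mice (0.663%). For exercise it was 0 in fl/fl mice at ZT3 (0.236%) and at ZT15 (0%) and in HIF1α KO mice at ZT3 (0.131%) and at ZT15 (0.0591%). For genotype it was 0 in sedentary mice at ZT3 (0.4%) and at ZT15 (0.0459%) and in exercised mice at ZT3 (1.43%) and at ZT15 (0.4%). Between 1 and 3 members had an unadjusted p under 0.05 in each of these combinations, beside 772 to 2648 of the 15241 genes, and DESeq2 called no further member in any of them. No member and no gene was called in the interaction of exercise with time of day (0%), of genotype with exercise (0%), or of genotype with time of day (0%), by edgeR or by DESeq2. At an unadjusted p under 0.05 edgeR counted 1, 0, and 2 members and 648, 306, and 648 genes in these interactions. For exercise in fl/fl mice at ZT15 it counted 1406 genes, and DESeq2 called 16, none of them a member.

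Hif1a (ENSMUSG00000021109.13, chr12:73901375-73947530, plus strand) encodes the oxygen-labile subunit HIF1α. Its exons share bases with the antisense gene Gm15283 and with Gm49321 on the same strand, and how such reads were counted is not given in the sources used here. Across all mice its level ran from 25.9 to 57.3 CPM, with a median of 35.6. The lowest, median, and highest mouse stood at 30.6, 38.4, and 57.3 CPM at ZT3 (n = 31) and at 25.9, 33.5, and 44.4 CPM at ZT15 (n = 32). The ranges overlapped, but 28 of the 32 mice at ZT15 lay below the median of ZT3.

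Averaged over the 4 combinations, Hif1a fell by 0.19 on the log2 scale from ZT3 to ZT15 (SE 0.0492, adjusted p = 0.0083). In sedentary fl/fl mice it ran from 31.8 to 57.3 CPM, with a median of 40.5, at ZT3 and from 25.9 to 44.4 CPM, with a median of 31.7, at ZT15. There it fell by 0.33 (SE 0.0980, adjusted p = 0.0887). Sedentary HIF1α KO mice had medians of 39.4 and 32.7 CPM and a log2 difference of -0.25 (adjusted p = 0.53), and exercised HIF1α KO mice 38.1 and 34.4 CPM with -0.19 (0.49). In exercised fl/fl mice the medians were 35.61 and 35.04 CPM and the difference was 0.0077 (0.99). The interaction of exercise with time of day was 0.20 (SE 0.0985, adjusted p = 0.90), so a different time effect after exercise was not shown.

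Within blocks of 16 consecutive mouse numbers, along which the composition of the libraries varied, Hif1a was lower at ZT15 in 4 of 4 blocks, by 0.13 to 0.25 on the log2 scale. Its level also moved with the share of mitochondrial rRNA in a library (Pearson r -0.42, Spearman rho -0.43, 63 libraries), and that share had a median of 3.77% at ZT3 and 4.16% at ZT15. With the share as a covariate the average time difference was -0.18 (adjusted p = 0.0093), while that in sedentary fl/fl mice was -0.29 and no longer passed the threshold (0.14), as under 6 other settings. Leaving out any 1 library kept the average difference between -0.21 and -0.17, and the difference in sedentary fl/fl mice between -0.42, without the highest mouse at ZT15, and -0.25, without the highest mouse at ZT3. Neither sex passed the threshold alone, at -0.20 in males (adjusted p = 0.23) and -0.18 in females (0.22).

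**Figure D3:**
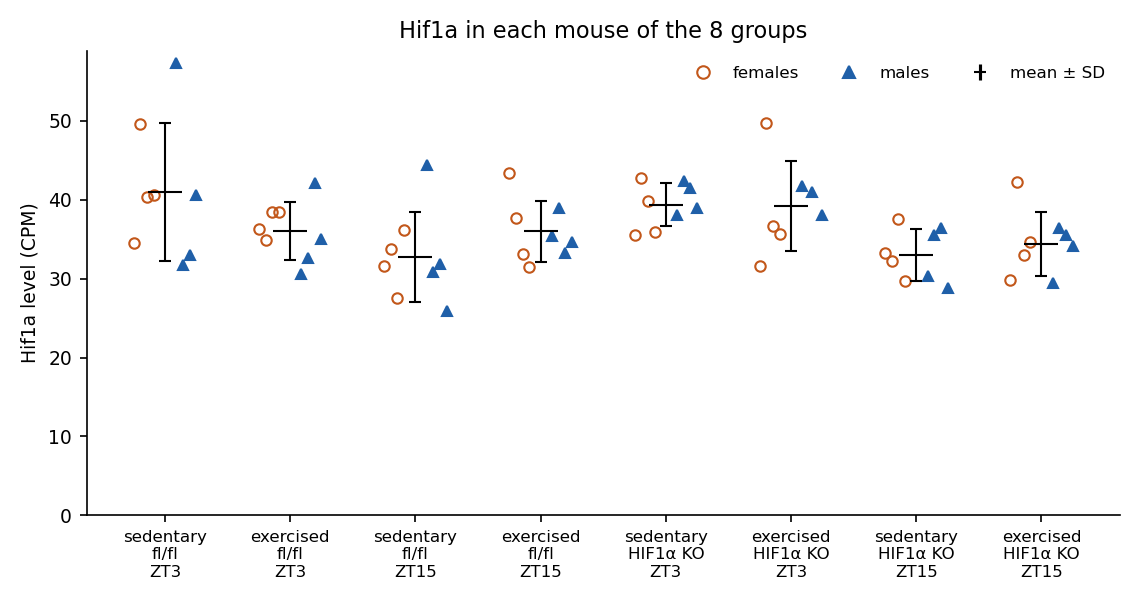
Hif1a level (CPM) in each mouse of the 8 groups, females as open circles and males as triangles, with mean ± SD. The mean is lower at ZT15 than at ZT3 in sedentary mice of both genotypes and in exercised HIF1α KO mice. In exercised fl/fl mice the means are 36.05 CPM at ZT3 and 35.99 CPM at ZT15. The ranges of the 8 groups overlap.

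Hif1a did not pass the threshold between genotypes. Over all its exons it ran from 25.9 to 57.3 CPM in fl/fl mice (median 34.96, n = 32) and from 28.8 to 49.7 CPM in HIF1α KO mice (median 35.95, n = 31). The log2 difference was 0.0042, with a 95% interval from -0.092 to 0.10. Exercise left a log2 difference of 0.00074 (95% interval -0.096 to 0.097), and males differed from females by -0.0055 (-0.10 to 0.091).

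Epas1 (ENSMUSG00000024140.10, chr17:86753700-86833410, plus strand) encodes HIF2α, a HIFα subunit known for its high level in endothelial cells. It ran from 23.5 to 104.9 CPM in fl/fl mice (median 56.3) and from 27.8 to 118.2 CPM in HIF1α KO mice (median 54.7). The spread among mice was wide, with an SD of 17.4 around a mean of 57.98 CPM over all 63. Its log2 difference was -0.037 for genotype (95% interval -0.22 to 0.14). For exercise it was 0.18 (0.0019 to 0.37, edgeR unadjusted p = 0.052, adjusted p = 0.47). That interval is a normal approximation and leaves out 0, although the unadjusted p is above 0.05. For ZT15 against ZT3 the difference was 0.20 (0.023 to 0.39, adjusted p = 0.23).

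The group means of Epas1 ran from 46.96 CPM in sedentary HIF1α KO mice at ZT3 to 76.7 CPM in exercised HIF1α KO mice at ZT15. In exercised HIF1α KO mice the medians were 48.3 CPM at ZT3 and 77.3 CPM at ZT15, with overlapping ranges of 27.8 to 79.4 and 44.9 to 118.2 CPM (log2 difference 0.59, SE 0.192, adjusted p = 0.20). The interaction of genotype with time of day was 0.41 (SE 0.186, adjusted p = 0.98). Across libraries Epas1 followed the share of mitochondrial rRNA (r 0.77, rho 0.73, n = 63) more closely than the endothelial score (r 0.44, rho 0.34), the mean of 10 endothelial markers. Its median was 42.8 CPM in the block of mouse numbers with the lowest median share (1.84%) and 68.84 and 62.96 CPM in the blocks with shares of 5.13% and 6.55%. Within the 4 blocks it was higher at ZT15 by 0.13 to 0.35. With the block as a covariate the time difference passed the threshold (0.22, adjusted p = 0.0385), as it did with the endothelial score (0.23, 0.0830), and with the mitochondrial rRNA share it did not (0.14, 0.23). The part of library composition in the Epas1 values was otherwise not tested.

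Hif3a (ENSMUSG00000004328.15, chr7:17031507-17062427, minus strand) encodes a HIFα-like subunit whose short forms restrain the others. Counts ran from 0 to 40 per library, so single mice are poorly resolved. Males had from 0 to 2.16 CPM, with a median of 0.433, and females from 0 to 1.06 CPM, with a median of 0.307. The level was above the female median in 25 of 31 males, and the log2 difference was 0.69 (SE 0.244, adjusted p = 0.0361). Males had the higher mean in 7 of 8 groups and in 4 of 4 mouse-number blocks. In exercised HIF1α KO mice the gap was only 0.056 CPM at ZT3 and 0.018 CPM at ZT15. In sedentary HIF1α KO mice at ZT3 the male mean differed by -0.093 CPM. Without the male with the highest level, an exercised fl/fl mouse at ZT15, the log2 difference over all groups was 0.58. With all 63 libraries the same fit, separate from the main one, gave 0.70. HIF1α KO mice had a median of 0.317 CPM and fl/fl mice 0.423 CPM (log2 difference -0.53, SE 0.244, adjusted p = 0.20). Exercised mice had a median of 0.423 CPM and sedentary mice 0.316 CPM (0.49, SE 0.242, adjusted p = 0.45).

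Arnt (ENSMUSG00000015522.18, chr3:95434388-95497240, plus strand) encodes HIF1β, the main partner with which HIFα subunits bind DNA. It ran from 30.5 to 51.4 CPM in fl/fl mice, with a median of 40.4, and from 26.9 to 48.1 CPM in HIF1α KO mice, with a median of 37.2. The log2 difference of -0.13 (SE 0.0468) had an adjusted p of 0.106, just outside the threshold, and DESeq2 put it inside (-0.13, adjusted p = 0.0819). It was -0.21 in males alone (adjusted p = 0.034) and -0.042 in females alone (0.98), and the difference between the sexes in it was -0.17 (SE 0.0955, adjusted p = 0.49). By combination it was -0.27 in sedentary mice at ZT15, -0.16 in exercised mice at ZT3, -0.13 in sedentary mice at ZT3, and 0.046 in exercised mice at ZT15, none of them past the threshold. The level followed the mitochondrial rRNA share (r 0.61, rho 0.61, n = 63), whose median was 4.24% in controls and 3.58% in HIF1α KO mice. With that share as a covariate the difference was -0.10 (adjusted p = 0.13). Arnt differed by 0.032 on the log2 scale after exercise and by 0.054 at ZT15, with adjusted p of 0.90 and 0.60.

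The paralog Arnt2 (ENSMUSG00000015709.9, chr7:84246278-84410176, minus strand, sharing exon bases with the antisense gene Gm30873) ran from 0.739 to 3.71 CPM in fl/fl mice, with a median of 2.37, and from 0.392 to 3.02 CPM in HIF1α KO mice, with a median of 1.67. The log2 difference was -0.36 (SE 0.134), with an adjusted p of 0.108 by edgeR and 0.0942 by DESeq2. It was negative in each of the 4 combinations, from -0.48 to -0.24. The Schwann cell markers moved the same way, with 2 of the 3 listed lower in HIF1α KO mice and summed levels from 32.7 to 148.6 CPM (median 62.4) in fl/fl and from 28.6 to 130.0 CPM (median 47.2) in HIF1α KO mice. Of the mural markers 2 of 5 and of the fibroblast markers 1 of 5 were lower as well, and 1 of 3 satellite cell markers was higher. The part of these cells in the Arnt and Arnt2 values was not tested.

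Egln3 (ENSMUSG00000035105.5, chr12:54178981-54203860, minus strand) encodes the prolyl hydroxylase best known as a HIF target and was the 1 member that rose after exercise. Sedentary mice ran from 8.57 to 29.8 CPM, with a median of 16.5 (n = 32), and exercised mice from 10.9 to 42.7 CPM, with a median of 20.4 (n = 31). The ranges overlapped, and 25 of the 31 exercised mice lay above the sedentary median. The rise was 0.41 on the log2 scale, or 1.32-fold (SE 0.0849, adjusted p = 0.0020).

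The difference had the same sign in each combination. In fl/fl mice at ZT3 the sedentary group ran from 11.2 to 29.8 CPM (median 17.05) and the exercised group from 18.2 to 42.7 CPM (median 21.8), a log2 difference of 0.37. At ZT15 fl/fl mice ran from 8.57 to 26.96 CPM (median 16.9) and from 10.9 to 37.4 CPM (median 20.4), a difference of 0.34. HIF1α KO mice at ZT3 ran from 10.4 to 23.95 CPM (median 14.9) and from 16.1 to 33.3 CPM (median 19.9), a difference of 0.51. At ZT15 HIF1α KO mice ran from 13.6 to 20.7 CPM (median 15.5) and from 14.3 to 28.8 CPM (median 21.3), a difference of 0.40. None of these 4 passed the threshold alone, with adjusted p from 0.32 to 0.85. All 4 exercised groups had higher means than all 4 sedentary groups, although each neighbour in the order of the 8 means lay within 1 SD of the next.

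Neither genotype nor time of day was shown to alter this response. The interaction of genotype with exercise was 0.098 (95% interval -0.23 to 0.43, adjusted p = 0.9999) and that of exercise with time of day -0.067 (-0.40 to 0.27, adjusted p = 0.97). The rise was 0.34 in males alone (adjusted p = 0.44) and 0.48 in females alone (0.0403), and the difference between the sexes in it was -0.14 (SE 0.165, unadjusted p = 0.42). Within the 4 blocks of mouse numbers exercised mice were higher by 0.20 to 0.59, and without any 1 library the rise stayed between 0.38 and 0.43. The slow-fiber markers had a summed median of 958 CPM in sedentary and 1093 CPM in exercised mice, and a median log2 difference of 0.30. None of the 7 was called for exercise. Across the 63 libraries Egln3 moved with their score (r 0.47, rho 0.48), and with the score as a covariate Egln3 still passed the threshold. The part of fiber composition in the rise was otherwise not tested.

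**Figure D4:**
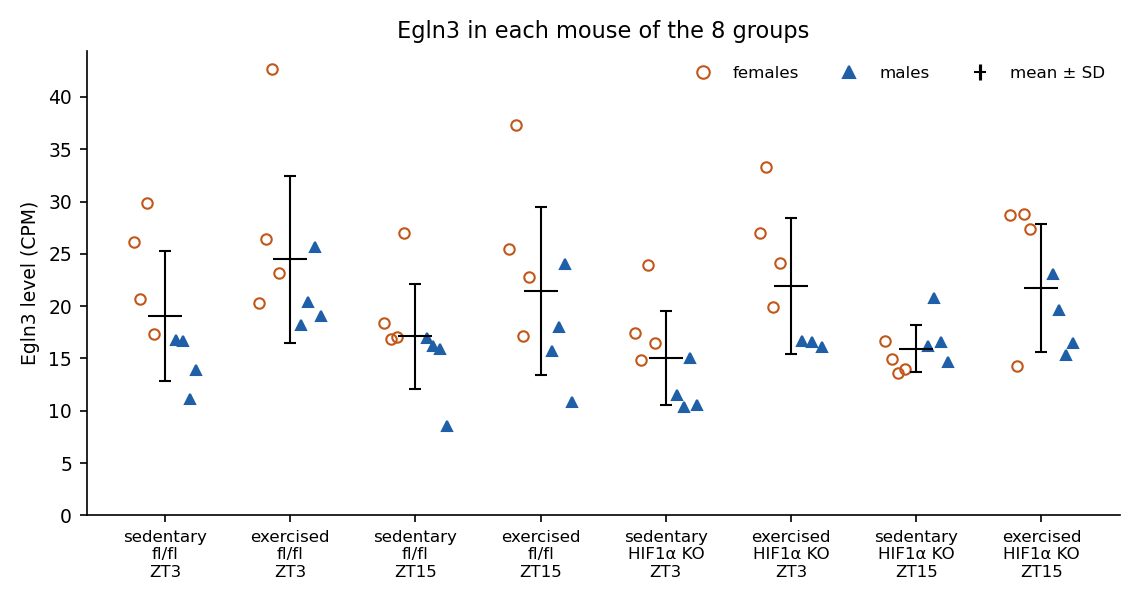
Egln3 level (CPM) in each mouse of the 8 groups, females as open circles and males as triangles, with mean ± SD. Each exercised group has a higher mean than its sedentary counterpart, and the female mean lies above the male mean in 7 of the 8 groups.

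Egln3 was also lower in males. Females ran from 13.6 to 42.7 CPM, with a median of 21.7, and males from 8.57 to 25.6 CPM, with a median of 16.5. Of 31 males 28 lay below the female median, and the log2 difference was -0.46 (SE 0.0855, adjusted p = 2.5e-05). Males had the lower mean in 7 of 8 groups, the exception being sedentary HIF1α KO mice at ZT15 (17.02 CPM in males, 14.82 in females). The slow-fiber markers moved with sex as well, all 7 of 7 lower in males, with summed levels from 346.1 to 1772.7 CPM (median 784.2) in males and from 623.5 to 3833.5 CPM (median 1349.9) in females. With the slow-fiber score as a covariate the Egln3 difference was -0.42 (adjusted p = 0.0062). Markers of other cells also differed between the sexes. Lower in males were 3 of 4 adipocyte, 3 of 3 Schwann cell, and 3 of 5 fibroblast markers, and higher were 3 of 8 fast-fiber, 3 of 4 erythroid, 2 of 10 endothelial, and 2 of 5 mural markers. Apart from the endothelial score, with which the 4 sex differences still passed the threshold, their part in the values of the members was not tested.

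Egln1 (ENSMUSG00000031987.6, chr8:124908587-124949324, minus strand), the main oxygen sensor among the hydroxylases, went the other way. Females ran from 92.8 to 151.0 CPM, with a median of 125.1, and males from 114.8 to 224.1 CPM, with a median of 145.9. The log2 difference was 0.26 (SE 0.0466, adjusted p = 1.2e-05), and 28 of 31 males lay above the female median. Males had the higher mean in 8 of 8 groups. In all 4 fl/fl groups the lowest male lay above the highest female, as in exercised fl/fl mice at ZT3 (158.8 to 209.1 CPM in males, 107.6 to 129.2 CPM in females). In all 4 HIF1α KO groups the sexes overlapped. The share of all genes without overlap is not given, so these counts are not read as a trait of Egln1. The male mean was higher by 20.7 to 53.6 CPM in the fl/fl groups. In sedentary and exercised HIF1α KO mice it was higher by 19.1 and 50.5 CPM at ZT15 and by 2.94 and 1.53 CPM at ZT3. The difference between the sexes in the genotype effect, -0.13 (SE 0.0870), had an adjusted p of 0.54. A sex difference that depends on genotype was therefore not shown. With the slow-fiber score as a covariate the sex difference was 0.23 (adjusted p = 0.0052).

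Egln2 (ENSMUSG00000058709.11, chr7:27158658-27166802, minus strand, sharing exon bases with Cyp2t4 on the other strand) encodes the remaining prolyl hydroxylase. It ran from 39 to 79.1 CPM in females, with a median of 61.3, and from 55.6 to 77.1 CPM in males, with a median of 68.1. The log2 difference was 0.15 (SE 0.0423, adjusted p = 0.0075), with 26 of 31 males above the female median and a higher male mean in 7 of 8 groups. With the slow-fiber score as a covariate it was 0.13 and no longer passed the threshold (adjusted p = 0.13).

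**Figure D5:**
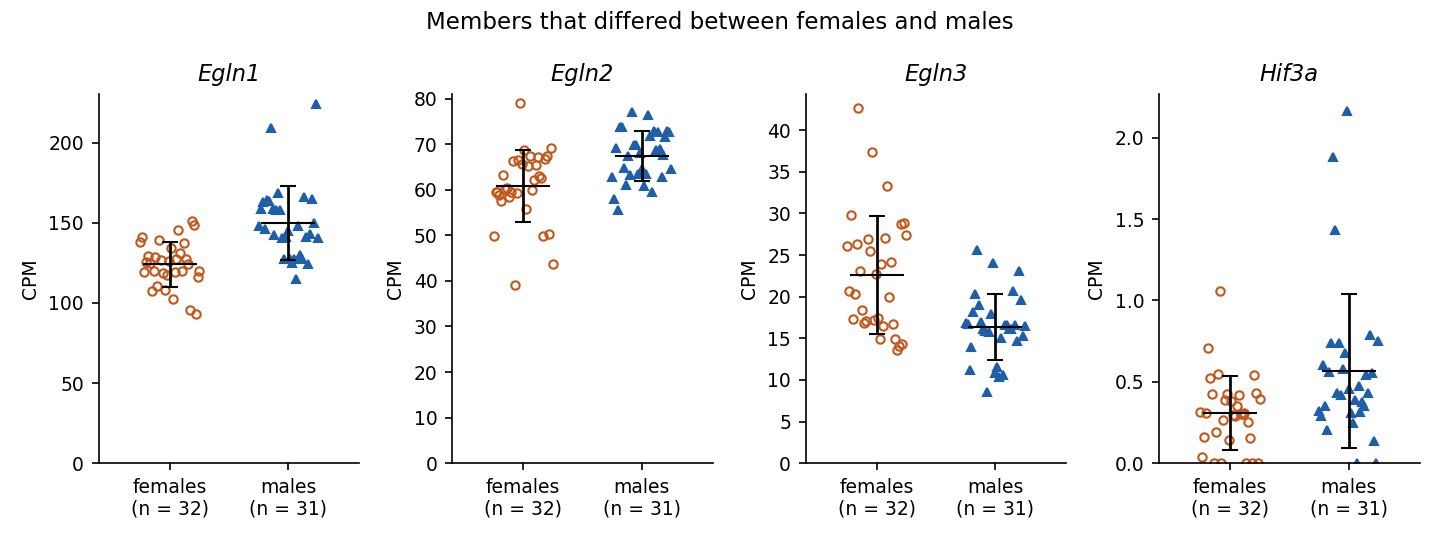
Levels (CPM, axes from 0) of Egln1, Egln2, Egln3, and Hif3a in 32 females (open circles) and 31 males (triangles), with mean ± SD. Males are higher for Egln1, Egln2, and Hif3a and lower for Egln3, with overlapping ranges in all 4.

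Neither Egln1 nor Egln2 passed the threshold for exercise, time of day, or genotype. For exercise the log2 difference was 0.035 for Egln1 (95% interval -0.056 to 0.13) and 0.053 for Egln2 (-0.030 to 0.14). At ZT15 against ZT3 it was -0.0024 for Egln1 and 0.015 for Egln2, and for genotype -0.054 and 0.040.

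Hif1an (ENSMUSG00000036450.4, chr19:44562850-44576274, plus strand), the asparaginyl hydroxylase, ran from 83.2 to 170.5 CPM in fl/fl mice (median 125.4) and from 84.9 to 180.0 CPM in HIF1α KO mice (median 111.0). Its log2 difference between genotypes was -0.082 (95% interval -0.20 to 0.031, adjusted p = 0.44) over both sexes and -0.20 in males alone (0.0877), and the difference between the sexes in it was -0.23 (SE 0.117, adjusted p = 0.47). It was -0.064 after exercise and 0.011 at ZT15, with 95% intervals from -0.18 to 0.049 and from -0.10 to 0.13.

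Vhl (ENSMUSG00000033933.13, chr6:113623959-113631633, plus strand), the substrate receptor of the ligase that destroys hydroxylated HIFα, ran from 1.48 to 7.78 CPM in fl/fl mice (median 5.38) and from 3.46 to 11.1 CPM in HIF1α KO mice (median 5.46). Log2 differences were 0.059 for genotype (95% interval -0.10 to 0.22), -0.12 for exercise (-0.29 to 0.040), 0.054 for ZT15 (-0.11 to 0.22), and 0.063 for males (-0.10 to 0.23).

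Over the 8 groups the members differed in how far their means spread. The highest group mean was 1.13 times the lowest for Egln2, between 1.20 and 1.29 times for Egln1, Hif1an, Arnt, Hif1a, and Vhl, 1.499 times for Arnt2, 1.63 times for Egln3 and for Epas1, and 2.25 times for Hif3a. In the order of means, all 7 neighbouring pairs lay closer than the larger SD of the pair for each of the 10 members. Sedentary HIF1α KO mice at ZT3 had the lowest mean of 5 members, Epas1, Hif3a, Arnt, Egln1, and Egln3. No member was called there for genotype, and the share of all genes with their lowest mean in this group is not given. For Hif3a the next lowest mean was 0.2984 CPM, against 0.2835 CPM. Epas1, Arnt, and Egln1 moved with the mitochondrial rRNA share (r 0.77, 0.61, and 0.48).

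Members were also compared with each other across the 63 libraries, as a description in which mice share library composition, time, treatment, and sex. Arnt and Hif1an were the most alike (r 0.64, and 0.70 after group and sex means were taken out), then Epas1 and Arnt (0.58 and 0.55). Hif1a ran against Hif1an (-0.48 and -0.50) and against Epas1 (-0.45 and -0.35). These 4 members also moved with the mitochondrial rRNA share, with r 0.77 for Epas1, 0.67 for Hif1an, 0.61 for Arnt, and -0.42 for Hif1a.

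Among 12933 other protein-coding genes, the pattern most like Egln1 was that of Rpl3l, a ribosomal protein of striated muscle (r 0.86, and 0.84 after group and sex means were taken out), followed by Adssl1 (0.78) and Asb10 (0.77). Egln3 was most like Got1, the cytosolic aspartate aminotransferase (0.71), then Abhd18 (0.68) and Slc25a34 (0.67). For Egln2 these genes were Srf, Ppp1r37, and Aars2 (0.74 to 0.75), and for Hif1an they were Pcca, Tmed10, and Nrd1 (0.78 to 0.81). Epas1 had the closest neighbours of any member, Fbrs, Mef2d, and Nos1 (0.88 to 0.89). Arnt was most like Tor1aip1, Elk4, and Tmem131 (0.77 to 0.78), and Hif1a like Fstl1, Calu, and Tceal9 (0.68 to 0.70). Vhl was most like Rnf138, Copg2, and B4galt2 (0.61 to 0.64) and Arnt2 like Emilin1, Vps11, and Fras1 (0.59 to 0.64). Hif3a had the weakest likeness, with Jade2, Sema3g, and Gpr146 (0.54 to 0.58).

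Partners of the pathway were read from a list of 35 genes, all tested, that holds the coactivators, the other subunits of the VHL ligase, regulators of HIF stability, related bHLH-PAS factors, and oxygen-dependent demethylases. For genotype 4 of 35 (11.4%, against 8.26% of all genes) were called, all higher in HIF1α KO mice, and the list's median log2 difference was 0.026 against -0.0028 for all genes. Cited4, which binds the coactivators that HIF uses, rose by 0.70 (SE 0.134, adjusted p = 3.5e-04), the deubiquitinase Usp20 by 0.27 (0.011), and the VHL ligase subunits Elob and Cul2 by 0.19 (0.082) and 0.15 (0.0043). For exercise 1 of 35 (2.86%, against 2.84%) was called, the aryl hydrocarbon receptor Ahr, which rose by 0.25 (adjusted p = 0.078), with a list median of 0.0025 against -0.0037.

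At ZT15 against ZT3, 3 of the 35 partners (8.57%, against 8.02% of all genes) were called. The clock factors Arntl and Npas2, which are bHLH-PAS relatives of the HIFs, rose by 1.02 and 1.08 (adjusted p = 7.8e-11 and 2.3e-04), and the demethylase Kdm4c fell by 0.12 (0.085), with a list median of -0.00082 against -0.0034. For sex 11 of 35 (31.4%, against 25.1%) were called, 6 higher and 5 lower in males, with a list median of 0.00082 against -0.011. The X-linked demethylases Kdm6a and Kdm5c fell by 0.92 and 0.61 in males (adjusted p = 2.1e-26 and 8.9e-13), and Cited4 and the chaperone Hsp90aa1 rose by 1.31 (5.6e-12) and 0.43 (7.1e-05).

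Of 28 known HIF targets other than Egln1 and Egln3, 5 (17.9%, against 8.26% of all genes) were called for genotype, 4 lower and 1 higher in HIF1α KO mice, with a list median of -0.043 against -0.0028 for all genes. Ankrd37 fell by 0.57 (adjusted p = 0.027), the carbonic anhydrase Car9 by 0.53 (0.078), and the MYC antagonist Mxi1 by 0.14 (0.026), while the mitochondrial protein Higd1a rose by 0.17 (0.080). Exercise moved 3 of 28 (10.7%, against 2.84%), 2 up and 1 down, with a median of 0.027 against -0.0037. Hexokinase Hk2 rose by 0.42 (adjusted p = 0.024), the fructose-2,6-bisphosphate enzyme Pfkfb4 by 0.26 (0.0034), and its relative Pfkfb3 fell by 0.92 (1.3e-05).

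Time of day moved 6 of the 28 targets (21.4%, against 8.02% of all genes), 2 up and 4 down at ZT15, with a list median of -0.043 against -0.0034. Pfkfb3 fell by 1.88 (adjusted p = 4.4e-15), the lipase inhibitor Angptl4 by 0.83 (0.024), the transferrin receptor Tfrc by 0.36 (0.019), and the demethylase Kdm3a by 0.16 (0.017). Between the sexes 14 of 28 (50%, against 25.1%) differed, 10 higher and 4 lower in males, with a median of 0.10 against -0.011. None of these shares was tested against the background. Adenylate kinase Ak4 fell by 1.45 (adjusted p = 1.8e-14) and Mxi1 by 0.20 (8.0e-05) in males, while Pfkfb3 rose by 1.03 (9.4e-08) and the vessel growth factor Vegfa by 0.41 (1.5e-07).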

How the data were processed

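The authors mapped reads to mm10 with STAR, and the deposited table, made with featureCounts, gives a raw count for every gene and mouse. Versions, annotation release, strand setting, and how a read shared by several genes was treated are not given in the sources used here. The kit marks strand. Of 55401 gene identifiers 55141 were matched to GENCODE M21, and coordinates are 1-based on GRCm38.

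Samples were grouped by their labels. Low genes were removed with filterByExpr (minimum count 10). Group and sex were fitted to 63 libraries by the robust quasi-likelihood method of edgeR 4.0.16 in R 4.3.3 with TMM scaling. Benjamini-Hochberg adjustment covered 15241 genes per comparison, and genes with an adjusted p under 0.1 were called. Standard errors are the log2 fold change over the root of its F value, and 95% intervals are normal approximations. P-values measure the spread between mice, 1 library each. Log2 CPM for correlations used a prior count of 2. The fit was tested on simulated data.

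The 10 members and all lists were chosen with earlier results of these data known. Named were all members, up to 4 called genes of each list per comparison (smallest p), the 3 genes most like each member, and the label checks. Alternatives were all 64 libraries, no sex term, other filters, RLE scaling, DESeq2 1.42.0, an adjusted p under 0.05, removal of 3 libraries under 5000000 counts, covariates (mouse-number block, mitochondrial rRNA share, slow-fiber and endothelial scores), only the compared groups, and each sex alone. Differences within blocks, single libraries left out (dispersions kept), and the difference between sexes were chosen after seeing the data. The dispersions kept were estimated once for the members from all 63 libraries, apart from the main fit.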

Additional observations from a re-analysis of the deposited data

Results flagged for a closer look

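In each of 80 sets (10 members by 8 groups), the highest and lowest mouse were compared with the nearest other mouse by Dixon's ratio. A mouse stood apart in 10 sets, and chance flags about 1 in 20 sets. For Hif3a, the highest mouse had 1.88 CPM in the exercised fl/fl group at ZT3 (nearest 0.739) and 2.16 CPM in the exercised fl/fl group at ZT15 (nearest 0.680), both males, and 1 sedentary HIF1α KO male at ZT3 had 0 (nearest 0.250). Egln3 reached 42.7 CPM in 1 female of the exercised fl/fl group at ZT3 (nearest 26.4) and 20.7 CPM in 1 male of the sedentary HIF1α KO group at ZT15 (nearest 16.7). Another exercised fl/fl male at ZT3, with 5597569 counts in all, was lowest both for Arnt2 (0.739 CPM, nearest 2.12) and for Vhl (3.20 CPM, nearest 4.92). Vhl was also high in 1 sedentary HIF1α KO male at ZT15 (11.1 CPM, nearest 7.26). Egln2 was low in 1 female of that group (49.9 CPM, nearest 62.5). Hif1an was high in 1 exercised HIF1α KO female at ZT3 (147.4 CPM, nearest 111.0). Leaving out any 1 library kept the sign of the 7 called member results in the fits with dispersions kept.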

How the results depend on the processing

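Of 84 values of the 7 called member results under other settings, 73 stayed past the threshold, 11 did not, and none changed sign. Over both sexes, exercise called 1 member under every other setting and males alone called 0 (Egln3, 0.34). Time of day on average called 1, which became 2 with the mouse-number block and with the endothelial score (Hif1a and Epas1), and 0 in males alone and in females alone. In sedentary fl/fl mice the 1 call, Hif1a, became 0 without the sex term, with no filter, without the libraries under 5000000 counts, with the mitochondrial rRNA share, with the slow-fiber score, with only the compared groups (adjusted p = 0.23), and at an adjusted p under 0.05. In exercised HIF1α KO mice the block gave 1 time call, Epas1 (0.51), from 0. For genotype the count of 0 became 1 with at least 10 counts in every library, RLE scaling, and the slow-fiber score (Arnt, -0.14, -0.13, and -0.13), 2 with DESeq2 (Arnt and Arnt2), and 3 in males alone (Arnt, -0.21, Arnt2, -0.46, and Hif1an, -0.20). For sex the count stayed within 1.5 times, with Egln2 lost and Arnt gained with the slow-fiber score. Apart from fits on fewer mice, the cause of these moves was not tested. The counts stand without the share of all genes called under the same setting. They are therefore not read as results about the members. No paired analysis was possible because the mouse numbers differ between groups. Hif3a could not be tested with at least 10 counts in every library or in females alone. Depth limits Hif3a, Arnt2, and single mice of Vhl.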
